A study of Homo sapiens with 16 samples.

Results

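The effect of UNBS1450 on transcripts of U937 cells at 9 h of treatment was compared with its effect at 6 h. U937 is a human histiocytic lymphoma line with monocytic features, and it is spelled U397 in the sample labels. UNBS1450 is a semi-synthetic cardiac glycoside, given at 20 nM to cells in exponential growth. Each array carried RNA of treated cells and RNA of untreated cells of the same hour, one labelled with Cy5 and the other with Cy3, so that a value is the log2 ratio of treated over control. The comparison used 8 of the 16 arrays of the series, chosen by their labelled hour, with 4 replicates at 9 h and 4 replicates at 6 h. Replicates 1 and 2 carried treated RNA in Cy5, and replicates 3 and 4 carried it in Cy3, so the sign of the last pair was turned. The difference reported throughout is the mean log2 ratio at 9 h minus the mean at 6 h, negative where the treated over control ratio was lower at 9 h. The other 8 arrays, of 0 and 3 h, entered the fit to estimate the spread and stand only in the time courses. The 0 h arrays name the agent for the treated channel in their labels, while the methods describe that hour as without treatment.

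Cardiac glycosides bind the sodium pump, the Na/K-ATPase of the plasma membrane, and block the export of sodium in exchange for potassium. Human cells exposed to them lose potassium and gain sodium, and protein synthesis slows when potassium is low. Transcripts with short half-lives, such as those of immediate early and growth control genes, are the ones whose level can move within a few hours of a change in transcription. A ratio within an array gives no expression level, so whether the monocytic markers of U937 cells were present could not be checked, and fewer transcripts per cell cannot be told apart from fewer cells of a kind.

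The difference between 9 h and 6 h was small against the spread of the arrays. Over 17329 genes its median size was 0.080 on the log2 scale, with or without replicate 4, and 342 genes (1.97%) differed by at least 1.3-fold. The size of the effect itself had a median of 0.087 at 9 h and 0.068 at 6 h. No gene (0% of 17329) passed limma's moderated test of the difference at 1.3-fold and a Benjamini-Hochberg adjusted p under 0.05, and the lowest adjusted p was 0.999. At an unadjusted p under 0.05 and the same fold, 83 genes (0.479%) passed in limma, 36 (0.208%) higher and 47 (0.271%) lower at 9 h. With the replicate number as a block, 174 genes (1.00%) passed the unadjusted test in limma, 79 (0.456%) higher and 95 (0.548%) lower. None passed after adjustment, and the lowest adjusted p was 0.685. The block was fitted to the arrays of all hours, with a shared offset per replicate number. Its spread therefore includes the 0 and 3 h arrays and is not that of the same-numbered differences between 9 h and 6 h. Without replicate 2 the unadjusted count was 155. Under robust regression, which gives less weight to arrays far from the rest, 3 genes (0.0173%) passed after adjustment, each at an adjusted p of 0.0242 in limma. They were MYC, HERPUD1 and GEMIN6, all lower at 9 h. The robust fit was not tested on simulated data, so its adjusted p is given only as a description. Since no gene passed the main test, the genes below are described by their values.

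Replicate 4 stood apart in size. Its difference between 9 h and 6 h reached 1.3-fold in 2727 genes, against 985, 479 and 1468 genes in replicates 1, 2 and 3. The 83 genes past the unadjusted test all kept their sign without replicate 4, and 50 of them kept a difference of at least 1.3-fold. In 71 of the 83 the 4 same-numbered differences ran one way, so leaving out a replicate could not turn their sign. The kept sign was therefore largely set by the choice of genes and is no check on replicate 4. Without replicate 4 the unadjusted test passed 103 genes, of which 35 were among the 83. Across genes, the differences of 2 replicates correlated weakly, with Pearson's r between 0.03 and 0.21 over 17329 genes, which share their arrays and are not independent.

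**Figure D1:**
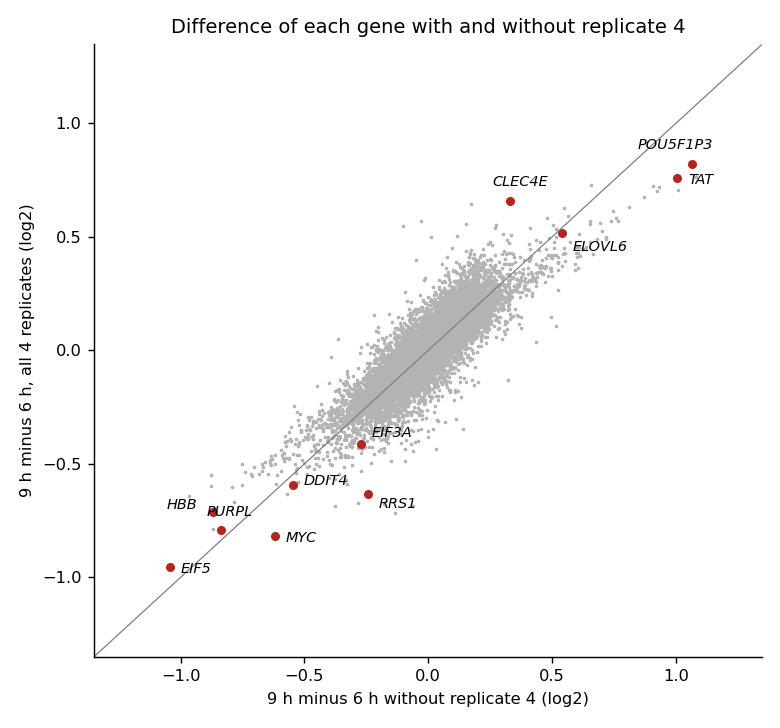
Difference between 9 h and 6 h of each of 17329 genes (grey points), on the log2 scale, without replicate 4 on the x axis and with all 4 replicates on the y axis, with the line of equality and 11 genes of the text in red. RRS1, MYC and CLEC4E lie farther from 0 with replicate 4 than without it, while EIF5, ELOVL6 and DDIT4 lie near the line.

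In none of the 83 genes was the mean ratio nearer to 0 at 9 h with its sign kept. In 25 of them the mean ratio had the same sign at both hours and was farther from 0 at 9 h, 20 of these below 0, and in the other 58 the mean changed sign. Over all genes, 7318 of 17329 had the same sign and were farther from 0 at 9 h, 4372 had the same sign and were nearer to 0, and 5639 differed in sign. Since the genes were picked by the size of the difference, these counts describe them and test nothing.

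EIF5, which encodes the GTPase activator of the translation start complex and helps select the start codon, had the most negative difference of all genes. Its log2 ratios were −1.36, −1.05, −1.97 and −2.14 at 9 h in replicates 1 to 4, against −0.39, −0.20, −0.66 and −1.45 at 6 h. The groups overlapped only through replicate 4 at 6 h, and each replicate was lower at 9 h than its own number at 6 h. It averaged −1.63 ± 0.51 at 9 h and −0.67 ± 0.55 at 6 h (SD, n = 4 each). The difference was −0.96 (SE 0.34, unadjusted p = 0.0124 in limma, 0.000196 with the replicate block), and it was −1.04 without replicate 4. The other 3 EIF5 spots gave differences between −0.72 and −0.59. On replicate 4 they did not all run the same way. One read −1.17 at 9 h and −2.14 at 6 h, a second read −1.50 at 9 h and −2.72 at 6 h, and the last read −2.44 at 9 h and −2.36 at 6 h. On replicates 1, 2 and 3 all 4 spots were lower at 9 h.

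EIF3A, the largest scaffold subunit of the initiation factor that joins mRNA to the small ribosomal subunit, had the smallest unadjusted p of all genes, 0.000685 in limma. Its ratios were −0.24, −0.18, −0.32 and −0.64 at 9 h, against −0.03, 0.14, −0.03 and 0.20 at 6 h. All 9 h arrays lay below all 6 h arrays, which held for 157 genes (0.906%) in this direction, for 159 (0.918%) in the other and so for 316 (1.82%) in all. The difference was −0.41 (SE 0.10) and −0.27 without replicate 4. The other spot of the gene gave −0.28, but its arrays overlapped, with 0.02 on replicate 4 at 9 h and −0.36 on replicate 3 at 6 h. Separation of the arrays is a description here and was not tested. EIF4E, the cap-binding factor, named here after its values were seen, also separated between the hours, at −0.13, 0.05, −0.09 and −0.18 at 9 h against 0.08, 0.11, 0.20 and 0.14 at 6 h, but its difference of −0.22 is below 1.3-fold and its 7 spots ranged from −0.22 to 0.17. The 39 translation initiation factors measured did not share a direction. Their median difference was −0.01, against 0.01 over all genes, with 6 members (15.4%) lower and 5 (12.8%) higher in all 4 same-numbered comparisons, where 10.5% and 10.1% of all genes were.

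**Figure D2:**
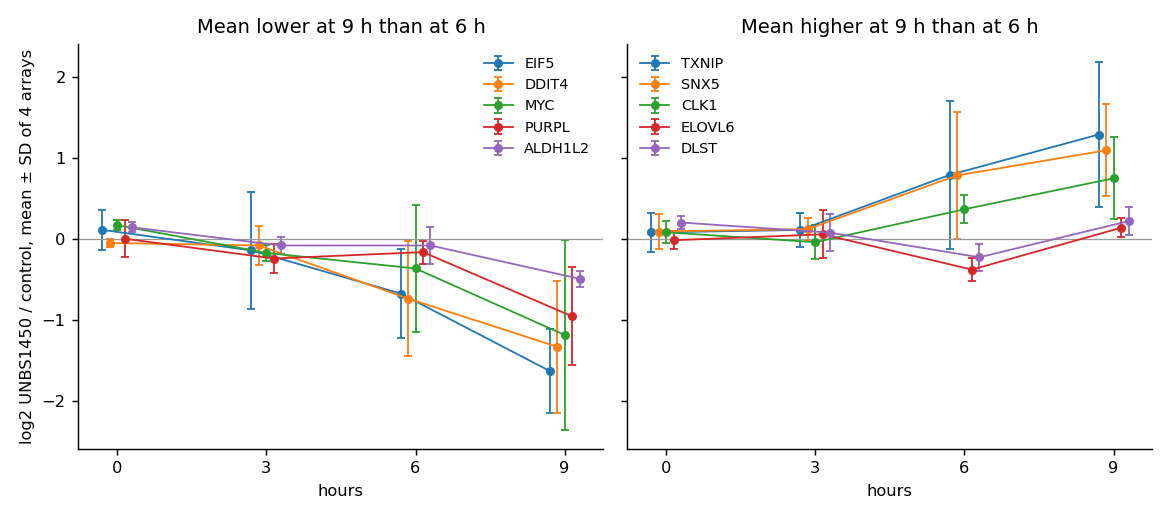
Mean log2 ratio of UNBS1450-treated over control cells (y axis) at 0, 3, 6 and 9 h (x axis, points set side by side for legibility) for 5 genes with a lower mean at 9 h than at 6 h (left) and 5 with a higher one (right), with bars of 1 SD over 4 arrays. EIF5 and DDIT4 lie near −0.7 at 6 h and below −1.3 at 9 h, while PURPL and ALDH1L2 lie near 0 until 6 h.

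MYC, the transcription factor that drives growth genes and whose mRNA turns over quickly, was lower at 9 h in every replicate. Its ratios were −0.66, −0.76, −0.39 and −2.93 at 9 h, against −0.09, −0.15, 0.29 and −1.51 at 6 h. Replicates 1, 2 and 3 at 9 h lay below their own numbers at 6 h, but above replicate 4 at 6 h, so the groups overlapped. The same-numbered differences were −0.57, −0.61, −0.68 and −1.42. The mean difference was −0.82 (SE 0.45, unadjusted p = 0.0867 in limma) and −0.62 without replicate 4. With the replicate block the unadjusted p was 0.0358, so that MYC passed the unadjusted test there. Under robust regression it was −0.59, with an adjusted p of 0.0242 in limma. Of the 12 MYC spots, 10 read within 0.3 of these values on all 8 arrays, and the other 2 stayed between −0.19 and 0.12 on every array.

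**Figure D3:**
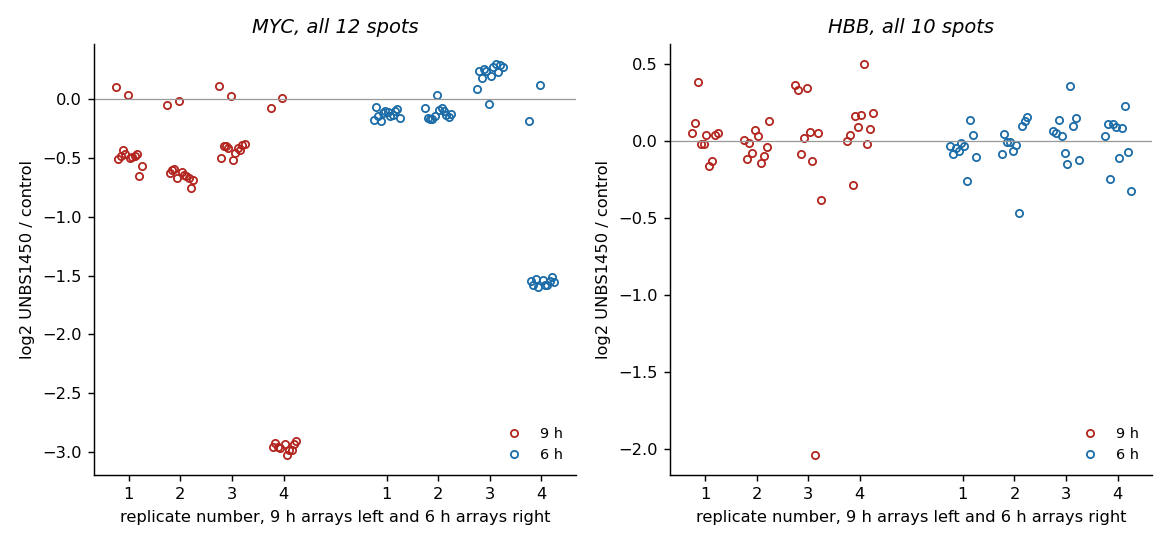
Log2 ratio of UNBS1450-treated over control cells (y axis) of every MYC spot (left) and every HBB spot (right) on each replicate of 9 h (red) and 6 h (blue). Of the 12 MYC spots, 10 lie together on each array, with the taken spot at −2.93 on replicate 4 at 9 h, while 1 of 10 HBB spots lies at −2.04 on replicate 3 at 9 h and the other 9 between −0.47 and 0.50.

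Of the 4 ID genes, inhibitors of basic helix-loop-helix factors, ID1, ID2 and ID3 were lower at 9 h in each replicate and ID4 was not. ID1 read −0.33, −0.42, −0.50 and −2.60 at 9 h, against −0.15, −0.09, −0.01 and −1.32 at 6 h, a difference of −0.57 (SE 0.40) that was −0.33 without replicate 4, but its other spot gave 0.03. ID2, ID3 and ID4, named after their values were seen, differed by −0.35, −0.19 and 0.17. On replicate 4, ID4 read 0.23 at 9 h and −0.31 at 6 h. In the list of 17 MYC network and ID genes, 4 members (23.5%) were lower and 1 (5.88%) higher in all 4 same-numbered comparisons. The median of that list was −0.01, and −0.06 when all spots of a gene were averaged.

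Genes of the amino acid response had the lowest list median on the spots taken, while ribosome biogenesis factors had it when all spots of a gene were averaged. ATF4 is a transcription factor whose protein accumulates when amino acids are short or protein folding fails, and it drives enzymes of serine, cysteine and asparagine synthesis. Of 29 members measured, 21 (72.4%) had a difference below 0, against 46.7% of all genes, and 9 (31.0%) were lower in all 4 same-numbered comparisons, against 10.5%. The median difference was −0.16. By replicate number it was −0.10, −0.17, −0.27 and −0.00, so the list median did not shift in replicate 4. Without replicate 3 the median was −0.04, without replicate 4 it was −0.18, and with the mean of all spots it was −0.09. At 1.3-fold and an unadjusted p under 0.05, 2 members passed, both lower.

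ALDH1L2, a mitochondrial enzyme of folate metabolism, had the smallest unadjusted p of the list in the main fit. With the replicate block in limma, CTH (unadjusted p = 0.000259) and ATF4 (0.000744) had a smaller one than ALDH1L2 (0.000892). The ALDH1L2 ratios were −0.52, −0.36, −0.49 and −0.60 at 9 h, against 0.04, −0.26, 0.19 and −0.29 at 6 h. The groups did not overlap. The difference was −0.41 (SE 0.10, unadjusted p = 0.000938 in limma). TRIB3, a pseudokinase that ATF4 induces and that restrains it, read −0.27, −0.56, −0.20 and −0.74 at 9 h, against 0.18, −0.06, −0.14 and −0.22 at 6 h, a difference of −0.38 (SE 0.13), and its other spot gave 0.07. The remaining members lower in all 4 comparisons are DDIT4, described below, and 6 genes named after their values were seen. ATF4 itself was even across replicates, at −0.27, −0.42, −0.35 and −0.30 at 9 h against −0.11, 0.00, 0.06 and 0.22 at 6 h, although 1 of its 3 spots differed by only −0.04. PCK2, the mitochondrial enzyme that makes phosphoenolpyruvate, also separated, with −0.32, −0.33, −0.23 and −0.30 at 9 h and −0.01, −0.01, 0.06 and −0.18 at 6 h, but its other spot differed by 0.05. CTH, which makes cysteine from cystathionine, differed by −0.35 (SE 0.10), with same-numbered differences between −0.43 and −0.28. PSAT1 of serine synthesis and ASNS, asparagine synthetase, both differed by −0.28, and JDP2, a partner of AP-1 and ATF factors, by −0.21.

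Upstream sequences of 2 of these genes are shown because they hold the letters TGATGNAA, the form of the CEBP-ATF response element that ATF4 binds together with C/EBP proteins. Among 27305 genes with a RefSeq promoter window (GRCh38.p14), 3.89% held TGATGNAA on either strand within the 250 bases before an annotated start, 5 of 23 members of the amino acid response list with a window did (21.7%), and 2 of 8 among those lower in all 4 comparisons did (25.0%), ASNS and JDP2. A match of letters is a description and not a binding site, and capitals mark the match in the 250 bases that end at the start.
ASNS, chr7:97872409-97872658, minus strand: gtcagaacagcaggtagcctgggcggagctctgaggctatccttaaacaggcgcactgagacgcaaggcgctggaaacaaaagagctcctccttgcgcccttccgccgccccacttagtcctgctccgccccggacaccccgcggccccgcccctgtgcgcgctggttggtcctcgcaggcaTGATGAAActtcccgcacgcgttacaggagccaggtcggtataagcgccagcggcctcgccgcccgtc
JDP2, chr14:75427772-75428021, plus strand: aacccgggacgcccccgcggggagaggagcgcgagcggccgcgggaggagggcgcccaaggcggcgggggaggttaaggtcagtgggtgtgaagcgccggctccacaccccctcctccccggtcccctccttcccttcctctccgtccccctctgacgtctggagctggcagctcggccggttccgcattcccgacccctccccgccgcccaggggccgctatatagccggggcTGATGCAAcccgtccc

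**Figure D4:**
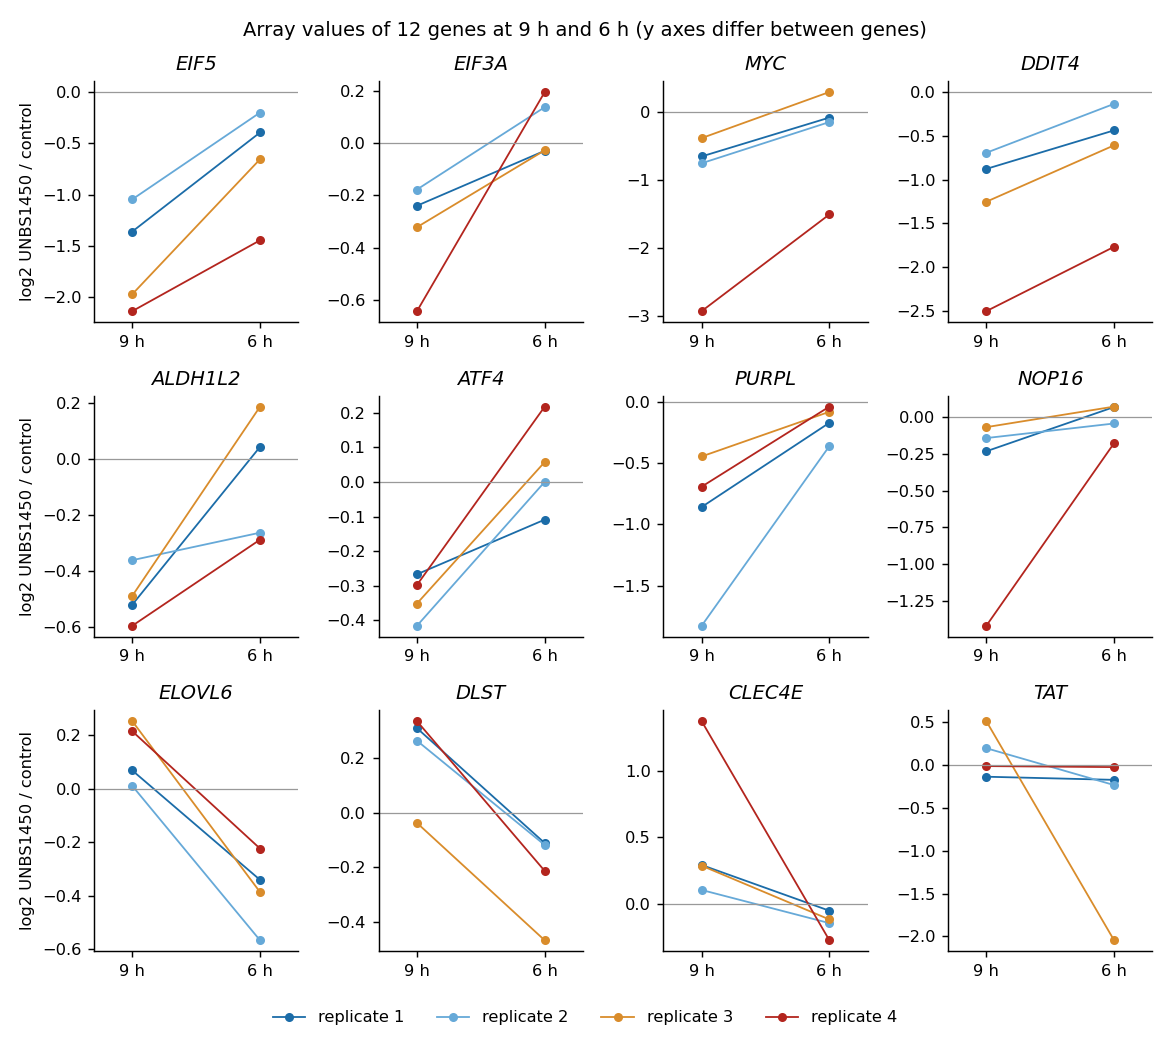
Log2 ratio of UNBS1450-treated over control cells (y axes, scaled per gene) at 9 h (left of each panel) and 6 h (right) for 12 genes, with a line joining the arrays of one replicate number. All 4 lines slope the same way in each gene shown, the slope of NOP16 and CLEC4E is steepest in replicate 4, and that of TAT rests on replicate 3 at 6 h.

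Ribosome biogenesis factors, which build the ribosomal subunits in the nucleolus, had the largest share of members lower in all 4 same-numbered comparisons. Of 49 measured, 19 (38.8%) were lower in all 4 and 1 (2.04%) was higher, and 39 (79.6%) had a difference below 0. The median difference was −0.12. By replicate number it was −0.05, −0.06, −0.10 and −0.30, so that replicate 4 had the largest shift, and the median without replicate 4 was −0.07. No member passed the unadjusted test in the lower direction. RRP12, which takes part in the export and maturation of pre-ribosomes, was the 1 member that passed it, and it was higher, at −0.09, 0.01, 1.13 and 0.15 at 9 h against −0.29, −0.02, −0.16 and −0.24 at 6 h.

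Members with large differences, named after their values were seen, were large on replicate 4. NOP16, a nucleolar protein of large subunit assembly, read −0.23, −0.14, −0.07 and −1.42 at 9 h, against 0.07, −0.04, 0.07 and −0.18 at 6 h (unadjusted p = 0.0524 in limma, 0.0406 with the replicate block). RRS1, also of large subunit assembly, read −0.40, −0.31, −0.05 and −2.28 at 9 h, against −0.13, −0.18, 0.29 and −0.48 at 6 h. WDR3, a small subunit processome protein, read −0.03, −0.22, −0.26 and −2.62 at 9 h, against 0.21, 0.04, 0.10 and −0.78 at 6 h. Each of the 3 was lower at 9 h in every replicate, by 0.10 to 0.36 on the log2 scale in replicates 1, 2 and 3 and by 1.24 to 1.83 in replicate 4. NOP58, a core protein of box C/D snoRNPs, was lower by a more even amount, with a difference of −0.28 that was −0.30 without replicate 4. UTP20, a processome subunit, was the 1 member whose arrays did not overlap, at −0.43, −0.15, −0.28 and −0.14 at 9 h against −0.02, −0.02, −0.12 and 0.20 at 6 h. ESF1, a nucleolar protein outside the list and named after its values were seen, read −0.65, −0.21, −0.58 and −0.19 at 9 h against −0.01, −0.03, −0.12 and 0.20 at 6 h, a difference of −0.42 (SE 0.12).

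The UTP20 promoter is shown because it carries CACGTG, the core of the E-box that MYC and MAX bind. In the same 250 bases, CACGTG, which reads alike on both strands, stood in 7.73% of 27305 genes, in 7 of 41 ribosome biogenesis members with a window (17.1%), and in 4 of the 15 among them lower in all 4 comparisons (26.7%), UTP14A, UTP20, LYAR and POLR1G. Capitals mark the match.
UTP20, chr12:101279855-101280104, plus strand: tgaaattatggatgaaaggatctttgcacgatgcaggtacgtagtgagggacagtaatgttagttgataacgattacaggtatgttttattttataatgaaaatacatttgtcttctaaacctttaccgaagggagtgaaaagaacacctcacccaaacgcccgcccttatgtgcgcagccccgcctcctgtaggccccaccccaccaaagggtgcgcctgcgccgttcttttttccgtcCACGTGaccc

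Most chaperones and HSF1 targets also had a difference below 0. Of 26 measured these were 21 (80.8%), against 46.7% of all genes. In all 4 comparisons 5 (19.2%) were lower, against 10.5% of all genes, and none was higher, against 10.1%. The median was −0.09, between −0.14 and −0.06 by replicate number, but −0.04 when all spots of a gene were averaged. HSP90AA1, the inducible HSP90, was the member past the unadjusted test, at −1.04, −0.22, −0.83 and −0.50 at 9 h against −0.26, −0.01, −0.44 and −0.21 at 6 h, a difference of −0.42 (SE 0.18). Of its 13 spots, 11 read within 0.3 of these values on all 8 arrays. HSPA8, the constitutive HSP70, averaged −1.02 ± 0.97 at 9 h and −0.68 ± 0.73 at 6 h (SD, n = 4 each), and DNAJB1, its co-chaperone, −0.73 ± 0.74 at 9 h and −0.33 ± 0.54 at 6 h (SD, n = 4 each). Replicate 4 was the lowest array of both genes at both hours. The chaperone list was not much lower than the 15 T cell genes measured, which the culture should not hold. Those had a median of −0.07, with 66.7% below 0 and 3 (20.0%) lower in all 4 comparisons.

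**Figure D5:**
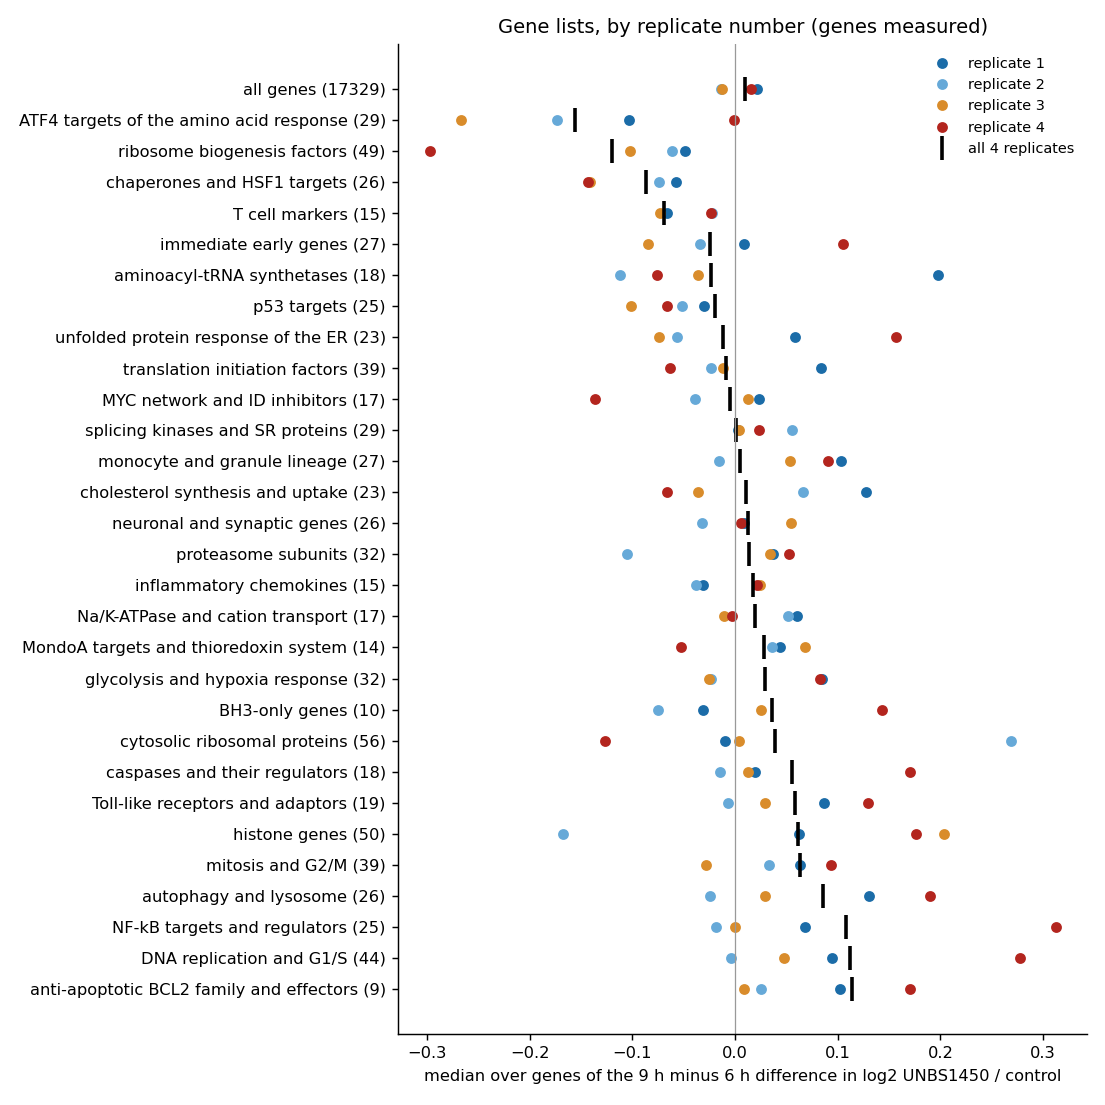
Median difference between 9 h and 6 h over the measured genes of each of 29 lists and of all genes (x axis, log2 scale), by replicate number (points) and over all 4 replicates (black bars), with the number of genes in brackets. Amino acid response, ribosome biogenesis and chaperone genes have the lowest medians, and replicate 4 holds the farthest point of ribosome biogenesis, NF-kB and DNA replication genes.

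Several genes already away from 0 at 6 h lay farther out at 9 h. DDIT4, an inhibitor of mTORC1 that stress induces and that also belongs to the amino acid response list, read −0.88, −0.69, −1.25 and −2.50 at 9 h, against −0.44, −0.14, −0.61 and −1.77 at 6 h. Each replicate was lower at 9 h by 0.44 to 0.73 on the log2 scale, and the difference of −0.59 (SE 0.35, unadjusted p = 0.111 in limma, 0.0305 with the replicate block) was −0.55 without replicate 4. The second DDIT4 spot gave −0.02. TXNIP, an inhibitor of thioredoxin that also restrains the uptake of glucose, read 1.12, 0.53, 0.92 and 2.57 at 9 h against 0.58, 0.31, 0.13 and 2.13 at 6 h, and its other spot gave a difference of 0.28. CLK1, a kinase of splicing factors, averaged 0.75 ± 0.50 at 9 h and 0.36 ± 0.17 at 6 h, and its relative CLK4 0.68 ± 0.27 at 9 h and 0.47 ± 0.28 at 6 h (SD, n = 4 each). For CLK1 the unadjusted p was 0.0618 in limma and 0.0396 with the replicate block, and the lowest of its 3 spots gave a difference of 0.07. SNX5, a sorting nexin of endosomes, was higher at 9 h in replicates 1, 2 and 3, at 1.03, 0.61 and 0.82 against 0.44, 0.38 and 0.36 at 6 h, but read 1.91 at 9 h and 1.95 at 6 h in replicate 4, and its other spot gave a difference of −0.16. EIF1B, a start codon selection factor, averaged 0.86 ± 0.27 at 9 h and 0.64 ± 0.41 at 6 h (SD, n = 4 each). TLR2, a receptor for bacterial lipoproteins, differed by 0.06 (SE 0.13), the lowest of its 10 spots, which reached 0.22. SLC7A5, a carrier of large neutral amino acids, differed by −0.27 (SE 0.17) on 1 spot and by 0.0009 on the other, and the transcription factor CEBPB by −0.26 (SE 0.12), with its 12 spots between −0.28 and 0.27.

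PURPL, a long noncoding RNA that p53 activates, separated between the hours on its single spot. Its ratios were −0.86, −1.83, −0.45 and −0.69 at 9 h, against −0.17, −0.36, −0.08 and −0.04 at 6 h. The difference was −0.79 (SE 0.22, unadjusted p = 0.00256 in limma) and −0.84 without replicate 4. Among the 25 p53 targets measured, 7 (28.0%) were lower and 1 (4.00%) higher in all 4 comparisons, at a median of −0.02. CDKN1A, the cell cycle inhibitor used most often as a p53 readout, differed by −0.07 (SE 0.08) and by 0.0090 without replicate 4.

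Among the genes higher at 9 h by at least 1.3-fold are ELOVL6 and DLST, whose arrays did not overlap between the hours, both named after their values were seen. ELOVL6 lengthens fatty acids of membrane lipids. It read 0.07, 0.01, 0.25 and 0.21 at 9 h, against −0.34, −0.57, −0.39 and −0.22 at 6 h, so that every array was above 0 at 9 h and below 0 at 6 h, and the difference was 0.52 (SE 0.12, unadjusted p = 0.000806 in limma). DLST is a subunit of the 2-oxoglutarate dehydrogenase complex of the citric acid cycle. It read 0.31, 0.26, −0.04 and 0.34 at 9 h, against −0.11, −0.12, −0.47 and −0.21 at 6 h, a difference of 0.45 (SE 0.12) with same-numbered differences between 0.38 and 0.55. The mean DLST ratio at 0 h was 0.20, close to the 0.22 at 9 h, so here the 6 h arrays were the lower ones, and its other spot gave a difference of 0.08.

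DNA replication and G1/S genes had a median difference of 0.11 over 44 members, of which 11 (25.0%) were higher and 2 (4.55%) lower in all 4 comparisons. By replicate number the medians were 0.09, −0.00, 0.05 and 0.28, and the median without replicate 4 was 0.06. CCND3, cyclin D3, passed the unadjusted test at 0.15, 0.02, 0.22 and 0.87 at 9 h against −0.39, 0.03, −0.90 and 0.01 at 6 h, although replicate 2 did not show the difference. RRM2, the small subunit of ribonucleotide reductase, read 0.51, 0.41, 0.32 and 0.96 at 9 h against 0.14, 0.15, 0.09 and 0.44 at 6 h, with its other spot at a difference of 0.05, and FEN1, the flap endonuclease of lagging strand synthesis, differed by 0.36 (SE 0.23), both named after their values were seen. Histone genes, many of them near-identical copies that one spot may not tell apart, had a median difference of 0.06 over 50 members, with 1 member (2.00%) higher in all 4 comparisons. Their median ratio on replicate 4 was 0.81 at 9 h and 0.59 at 6 h, and between −0.11 and 0.15 on the other 6 arrays of both hours.

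NF-kB targets and regulators had a median of 0.11 over 25 members, with 7 (28.0%) higher and 1 (4.00%) lower in all 4 comparisons, but the median without replicate 4 was 0.01. RELB, a subunit of the noncanonical pathway, read 0.45, 0.29, 0.33 and 1.83 at 9 h against 0.39, 0.14, 0.07 and 0.74 at 6 h. TNFAIP3, the ubiquitin editor that ends NF-kB signalling, read 0.26, 0.18, 0.23 and 2.56 at 9 h against 0.03, −0.02, 0.01 and 1.77 at 6 h. Both were named after their values were seen and had an unadjusted p above 0.1 in the same fit. Autophagy and lysosome genes had a median of 0.09 over 26 members, 6 of them (23.1%) higher and none lower in all 4 comparisons. GABARAP, which coats autophagosome membranes and was named after its values were seen, differed by 0.29 (SE 0.14), with same-numbered differences between 0.09 and 0.42.

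The 9 genes of the BCL2 family that block or carry out membrane permeabilisation had a median difference of 0.11, which was 0.06 with the mean of all spots, with 4 (44.4%) higher and 2 (22.2%) lower in all 4 comparisons. MCL1, the short-lived anti-apoptotic BCL2 relative, read −0.16, −0.03, −0.11 and 0.03 at 9 h against −0.29, −0.07, −0.17 and −0.19 at 6 h, a difference of 0.11 (SE 0.08, unadjusted p = 0.198 in limma), slightly higher at 9 h in each replicate. That was the largest of its 3 spot differences, and the lowest was −0.01. BCL2 itself differed by −0.11 (SE 0.11) and its 11 spots by −0.30 to −0.11. The BCL2L1 difference of 0.35 (SE 0.24) rested on replicate 1 at 9 h and replicate 4 at 6 h, and its other spots went as low as −0.00. BCL2L2, another survival relative and named after its values were seen, was higher at 9 h in each replicate by 0.24 to 0.27, below 1.3-fold, with a difference of 0.25 (SE 0.10). PMAIP1, a BH3-only gene whose product NOXA binds MCL1, differed by 0.06 (SE 0.17) and by −0.095 without replicate 4. ATP1B1, a beta subunit of the sodium pump to which the drug binds, read 0.31, 0.23, 0.24 and 0.94 at 9 h against 0.00, 0.13, 0.25 and 0.39 at 6 h, a difference of 0.23 (SE 0.14), and its 3 spots ranged from −0.32 to 0.23.

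Of the 3 genes that passed under robust regression, HERPUD1 and GEMIN6 were named after their values were seen. HERPUD1 acts in the degradation of misfolded proteins at the endoplasmic reticulum, and read −0.39, −0.67, −0.78 and −0.63 at 9 h against 0.23, −0.19, −0.14 and −0.85 at 6 h, lower in replicates 1, 2 and 3 and not in replicate 4. GEMIN6 is a member of the SMN complex that assembles spliceosomal snRNPs, and read −0.36, −0.40, −0.45 and −2.50 at 9 h against 0.04, 0.02, −0.07 and −1.44 at 6 h. The robust fit gave −0.48 for HERPUD1 and −0.40 for GEMIN6.

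Many of the most extreme differences came from 1 array. Of the 8 genes with the largest positive difference among those past the unadjusted p and higher in all 4 comparisons, TAT, MFGE8, KCNK10-AS1 and ASB5 each rested on replicate 3 at 6 h. TAT, a liver enzyme of tyrosine breakdown, read −0.14, 0.19, 0.51 and −0.02 at 9 h against −0.18, −0.24, −2.05 and −0.03 at 6 h, and its other spots gave differences down to 0.02. For MFGE8, a bridge between phagocytes and dying cells, replicate 3 at 6 h read −1.80 and the second spot differed by 0.11, as the second spot of ASB5 did by −0.02. CLEC4E, a macrophage receptor for mycobacterial glycolipids, differed by 0.66 (SE 0.19), most in replicate 4, at 0.29, 0.11, 0.29 and 1.37 at 9 h against −0.05, −0.14, −0.12 and −0.27 at 6 h, but the groups did not overlap and the difference was 0.33 without replicate 4. ODF2, a centriole protein, also separated, at 0.48, 0.92, 0.24 and 0.73 at 9 h against 0.01, 0.02, 0.16 and −0.17 at 6 h, although its other spot differed by only 0.03. POU5F1P3 had the largest positive difference, 0.82 (SE 0.32), with 1.21 in replicate 2 and 1.96 in replicate 3, and 0.02 and 0.10 in replicates 1 and 4. It is a processed pseudogene of POU5F1, whose related copies its single spot may also bind. The zinc finger gene ZNF292 differed by 0.73 (SE 0.30), with other spots down to −0.16.

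Low single arrays were also seen on the negative side beyond EIF5 and PURPL. By Dixon's criterion, described below, HBB, HERC3 and ASGR2 held a 9 h value far from the rest, and TMED6, CFAP70 and CCDC125 did not. HBB, beta globin, had 10 spots, and the 1 that was taken read −2.04 on replicate 3 at 9 h, while the other 9 stayed between −0.47 and 0.50 on all 8 arrays. HERC3, a ubiquitin ligase, and TMED6, a cargo receptor of the secretory pathway, read −1.59 and −1.58 on replicate 3 at 9 h. CFAP70, a protein of cilia, read −2.13 on replicate 2, ASGR2, a subunit of the hepatocyte asialoglycoprotein receptor, −1.60 on replicate 1, and CCDC125 −1.36 on replicate 4, all at 9 h. Their mean differences lay between −0.79 and −0.55, and HERC3 and CCDC125 had other spots with differences up to 0.12 and 0.26.

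The remaining lists had medians between −0.07 and 0.06, against 0.01 over all genes. The numbers of their members past the unadjusted test were 0 or 1. Cytosolic ribosomal protein genes were above 0 in 42 of 56 members with a median of 0.04, which was 0.27 in replicate 2, −0.13 in replicate 4 and −0.03 without replicate 2. The monocyte and granule lineage genes of the line had a median of 0.00 over 27 members. Among markers of cells the culture should not hold, the 15 T cell genes measured had a median of −0.07, with 3 (20.0%) lower in all 4 comparisons, and the median of the 26 neuronal and synaptic genes was 0.01.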

How the data were processed

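U937 cells treated with 20 nM UNBS1450 and untreated cells of the same hour were hybridised on 16 Agilent arrays, 4 at each of 0, 3, 6 and 9 h. The deposited values are log2 ratios of Cy5 over Cy3 which the authors had background-corrected (normexp), normalised within arrays (loess) and between arrays (Aquantile) with limma. No source used here states a further centring. The methods state that weak spots were down-weighted. No spot weights were used here. Of 45220 spots, 40563 had values on all arrays, 11507 of the table were not listed in the annotation used and 86 carried several symbols, which left 28970 spots of 17329 genes. Symbols were updated by gene identifier. Array medians lay between −0.0071 and 0.0033 before the sign of replicates 3 and 4 was turned, and the SD of a 9 h or 6 h array between 0.199 and 0.292 except for replicate 4 at 9 h, at 0.419. The number of arrays limits the precision.

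A coefficient per hour was fitted to all 16 arrays (limma 3.58.1 in R 4.3.3, 12 residual and 3.29 prior degrees of freedom), the contrast of 9 h minus 6 h was tested, and p was adjusted with Benjamini-Hochberg over all single-gene spots. Calls needed 1.3-fold and an adjusted p under 0.05. Of several spots of a gene, the one with the highest F over 3, 6 and 9 h was taken. Replicates are described as biological, but the files do not say which cultures or slides belong together. Same-numbered arrays of 9 h and 6 h deviated together from their group means (r = 0.58, 0.41, 0.32 and 0.65 for replicates 1 to 4), so the numbers pair the arrays.

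The 29 gene lists and the members were chosen with earlier results of these data known. They were described by counts and medians beside those of all genes, and no list was tested. Named genes were the 8 largest differences in each direction among genes past an unadjusted p of 0.05 with 4 same-numbered differences one way, up to 2 members per list past 1.3-fold and that p, and 23 measured genes fixed by interest. Another 26 are said to be named after their values were seen. The main fit and the fit with a fixed replicate block were tested on simulated data, and the other fits were not. Alternatives were a replicate block, fixed or random, a dye coefficient, robust regression, array weights, fewer arrays, the mean of all spots, all spots, array scaling and leaving out each replicate.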

Additional observations from a re-analysis of the deposited data

Results flagged for a closer look

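In groups of 4 arrays, single values far from the other 3 were looked for by Dixon's criterion (the gap to the nearest array over the range, against its critical value) in the named genes and the list medians. Of 192 sets of 4 arrays, 30 held such a value, 21 of them on replicate 4, 6 on replicate 3, 2 on replicate 1 and 1 on replicate 2. Chance flags about 1 in 20 groups, and genes picked for a large difference are likelier to hold such a value.

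On replicate 4 at 9 h the values were −2.93 for MYC, −2.60 for ID1, −1.70 for ID2, −1.48 for ID3, −1.42 for NOP16, −2.28 for RRS1, −2.62 for WDR3, −2.50 for GEMIN6, 1.83 for RELB, 2.56 for TNFAIP3, 1.37 for CLEC4E and 0.94 for ATP1B1. The list medians on that array were 0.17 for splicing kinases and SR proteins, 0.26 for BH3-only genes and 0.81 for histone genes. On replicate 4 at 6 h they were 1.95 for SNX5, −1.32 for ID1, −1.07 for ID3, −1.44 for GEMIN6, 1.77 for TNFAIP3 and 0.44 for RRM2.

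On replicate 3 the values were −1.59 for HERC3 and −2.04 for HBB at 9 h, and −2.05 for TAT, −1.80 for MFGE8, −1.27 for KCNK10-AS1 and −1.46 for ASB5 at 6 h. Replicate 1 at 9 h read −1.60 for ASGR2 and 0.72 for BCL2L1. The median of the proteasome subunits on replicate 2 at 9 h was −0.078.

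Among the 67 named genes, many of them picked for large differences, 4 had all arrays of 9 h of one sign and all of 6 h of the other. These were CLEC4E (difference 0.66), KCNK10-AS1 (0.57), ELOVL6 (0.52) and HBB (−0.71). Beyond the contrast given above, which none of them passed after adjustment, this opposition of signs was not tested. Its share over all genes is not given here. The HBB value is that of 1 of its 10 spots, as described above.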

How the results depend on the processing

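The main count of genes passing adjustment, 0, was also found under each alternative run except robust regression, which gave 3. The unadjusted count of 83 was 174 with the replicate block, 160 with a random replicate block, 145 with a dye coefficient, 148 with the replicate block without replicate 4, and, in an alternative chosen after seeing the data, 228 with only the 6 and 9 h arrays and the replicate block. It was 55 with only the 6 and 9 h arrays, 34 with the mean of all spots and 50 after array scaling, and ranged from 86 to 155 when 1 replicate was left out. The 316 genes whose 9 h and 6 h arrays did not overlap became 1213 to 1425, since 3 arrays against 3 overlap less often than 4 against 4. The replicate block changed no adjusted call. Its lowest adjusted p in limma was 0.685 on all arrays, 0.104 without replicate 4 and 0.223 with only the 6 and 9 h arrays. Robust regression brought MYC (−0.59), HERPUD1 (−0.48) and GEMIN6 (−0.40) past the threshold.

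Many of the 67 named genes were picked for a large difference or after their values were seen. Where all same-numbered differences ran one way, leaving out a replicate could not turn the sign. Kept directions were therefore largely set by the choice of genes and are no check on robustness. Of the 67 named genes, 64 kept their direction under the alternatives run and 3 small differences did not. PMAIP1 was −0.029 under robust regression, −0.017 with the mean of all spots and −0.095 in the replicate block without replicate 4, and ranged from −0.095 (without replicate 4) to 0.16 when 1 replicate was left out. With 1 replicate left out, TLR2 ranged from −0.046 (without replicate 2) to 0.15 and CDKN1A from −0.16 to 0.0090 (without replicate 4, also with the replicate block). The cause was not tested.

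Signal over background was not used here, so which spots lay near background is unknown.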
